A study of Homo sapiens with 9 samples.

Results

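The transcripts of 9 enzymes of glutamine and mitochondrial carbon metabolism were followed through MDA-MB-231 cells that had survived erastin or RSL3. The enzymes were chosen by name and matched by gene symbol among the 58735 genes of the count tables, and all 9 were present. They are GLUL and GLS2, which make and open glutamine, GLUD1, GOT1, GOT2 and GPT2, which take the amino group off glutamate, OGDH and IDH2 of the citric acid cycle, and PCK2, which draws carbon out of the cycle. Enough counts for a test were present for 8 of them, and GLS2 was close to absent.

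MDA-MB-231 is an established, mesenchymal, triple-negative breast cancer line. Vehicle cells received DMSO, erastin-R cells were a population that survived rising amounts of erastin, and RSL3-R cells a population that survived rising amounts of RSL3, each with 3 libraries of poly-A RNA. Apart from the agent, the labels give the 3 conditions the same line and no genetic change. All results come from this 1 line, the survivors are selected populations, and the sources used here do not say whether drug was present at harvest or whether libraries were separate cultures, so p values measure the spread between libraries, which may be technical. Erastin blocks the cystine and glutamate exchanger system xc-, and RSL3 inhibits the lipid peroxide reductase GPX4.

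Glutamine enters the cell and is opened by a glutaminase to glutamate, which loses its amino group to become alpha-ketoglutarate, either through glutamate dehydrogenase, which releases ammonia, or through transaminases, which pass the amino group on to make aspartate, alanine or serine. Alpha-ketoglutarate then enters the citric acid cycle in mitochondria. This route, glutaminolysis, is known to support ferroptosis when cells are starved of cystine, and glutamate itself is both a building block of glutathione and the molecule that system xc- exports. The comparisons ask how the enzymes of this route stood in cells surviving each agent.

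Total counts per library ranged from 15405102 to 17273464, and 3 counts, taken as the lowest detected level, corresponded to 0.174 to 0.195 CPM (CPM is the count scaled to a common library size by edgeR's TMM factors, except that this floor used the total count and covers counting error only). Of the markers of the line, VIM, CD44, EGFR, AXL, CAV1 and MSN were all abundant (at least 22.8 FPKM, the authors' value per length, in every library), ESR1 and PGR had at most 12 and 2 counts, and ERBB2 lay between 5.74 and 9.28 FPKM. Among markers of other cells, HBB had 0 counts, CD3E and CDH5 at most 4, PTPRC 3 to 24 and PECAM1 20 to 222. Libraries labelled erastin-R did not form a tight group. Replicate 1 lay apart on the third principal component (-35.7, against 14.4 and 13.0 for replicates 2 and 3). It also differed from them on the first (36.25 against 51.1 and 49.8) and the second (8.30 against 19.0 and 19.75). The 3 components held 42.4%, 33.1% and 6.7% of the variance, in order from the first. Counts from the mitochondrial genome made up 7.95% of replicate 1, against 5.55% and 5.84% of the others. That share was 7.97 to 8.93% in vehicle and 9.52 to 10.2% in RSL3-R libraries, and its part in the results below was not tested.

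PCK2 and GPT2 rose in both surviving populations and further in RSL3-R than in erastin-R cells, IDH2 rose in erastin-R and fell in RSL3-R cells, OGDH fell in both, and GOT2 fell in RSL3-R cells. A gene was called higher or lower at an adjusted p under 0.05 in edgeR's quasi-likelihood test over 16188 genes, and past the fold threshold where the absolute log2 fold change was also at least 1. In erastin-R against vehicle cells, 4 of the 8 tested enzymes were higher, 3 lower and 1 not called, with 1 (PCK2) past the fold threshold. Over all genes tested, 27.1% were higher, 26.8% lower and 13.4% past the fold threshold in that comparison. With DESeq2 in place of edgeR, 3 enzymes were higher and 2 lower there. The calls of GLUD1 (higher, edgeR adjusted p = 0.0386) and GOT2 (lower, edgeR adjusted p = 0.0499) lay near the threshold. They were lost under most of the alternative ways of processing. In RSL3-R against vehicle cells, 2 enzymes were higher, 3 lower and 3 not called, with 2 (PCK2 and GPT2) past the fold threshold, against 23.8%, 24.9% and 10.1% of all genes. In RSL3-R against erastin-R cells, 3 were higher, 4 lower and 1 not called, with 1 (IDH2) past the fold threshold, against 22.3%, 26.9% and 10.3%. The median log2 fold change of the 8 enzymes was 0.17, -0.08 and -0.11 in these comparisons, and that of all genes lay between -0.02 and 0.01. Both comparisons with vehicle use the same 3 vehicle libraries. In such bulk RNA, fewer cells with a transcript and less of it per cell cannot be told apart.

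**Figure D1:**
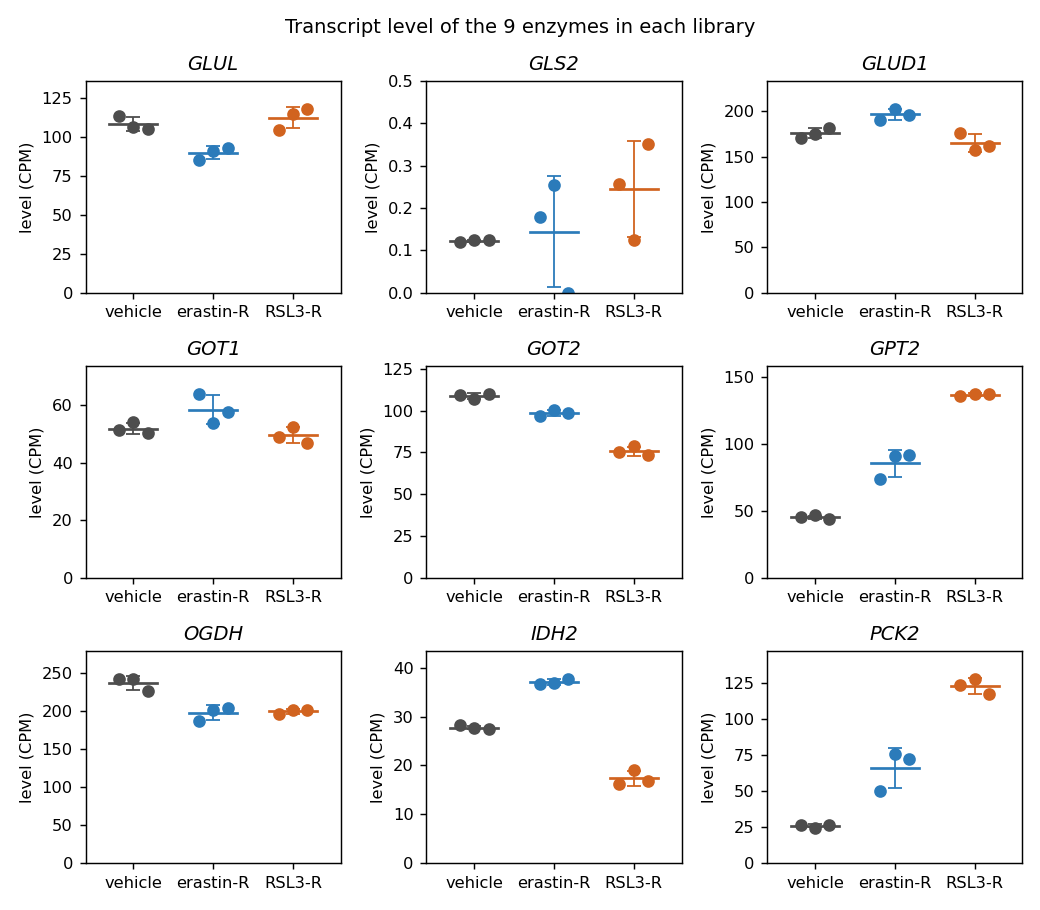
Transcript level in CPM (y axis, from 0) of each of the 9 enzymes in the vehicle, erastin-R and RSL3-R libraries, with 1 point per library and the mean and SD of 3 libraries as a line and bar. PCK2 and GPT2 step up from vehicle to erastin-R to RSL3-R with no overlap between conditions, IDH2 is highest in erastin-R and lowest in RSL3-R, and GLS2 stays at or below 0.351 CPM.

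Promoter sequence is shown for the members past the fold threshold in any comparison that had an entry in the RefSeq promoter table (GRCh38.p14, 250 bases before to 50 after the start site), which were PCK2 and IDH2, and for GOT1, which held the only match to the element searched. The element is TGATGNAA, the sequence bound by the amino acid stress factor ATF4 together with C/EBP proteins, and both strands were searched (TTNCATCA on the other). In the table, 7 of the 9 members had an entry, with 8 windows because GLUL had 2, and GPT2 and OGDH had none. Of all 35116 windows of 300 bases in the table, 1270 (3.62%) held a match. Among the members, only the GOT1 window did, as TTGCATCA on the opposite strand, 198 to 191 bases before the start site (positions -198 to -191), and these letters are in capitals below. The windows of PCK2, IDH2, GLUL, GLUD1, GOT2 and GLS2 held none, which says only that these letters are not in those bases. The RefSeq start lay 258 bases inside the gene as the count tables delimit it for PCK2, 945 bases for GOT1 and 1883 bases for IDH2, so other start sites of these genes were not searched. The windows are chr14:24094061-24094360 on the plus strand for PCK2, and chr10:99430575-99430874 and chr15:90100572-90100871 on the minus strand for GOT1 and IDH2.
PCK2: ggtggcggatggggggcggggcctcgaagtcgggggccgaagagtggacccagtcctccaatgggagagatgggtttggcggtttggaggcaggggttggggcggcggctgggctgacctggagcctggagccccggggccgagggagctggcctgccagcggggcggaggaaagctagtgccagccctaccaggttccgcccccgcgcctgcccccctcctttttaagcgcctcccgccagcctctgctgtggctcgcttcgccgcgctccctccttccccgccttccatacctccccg
GOT1: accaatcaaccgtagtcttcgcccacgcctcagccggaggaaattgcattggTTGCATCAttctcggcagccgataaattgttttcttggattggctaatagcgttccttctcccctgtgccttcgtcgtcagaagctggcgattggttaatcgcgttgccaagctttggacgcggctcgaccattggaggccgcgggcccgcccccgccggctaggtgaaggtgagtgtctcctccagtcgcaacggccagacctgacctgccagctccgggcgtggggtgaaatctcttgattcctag
IDH2: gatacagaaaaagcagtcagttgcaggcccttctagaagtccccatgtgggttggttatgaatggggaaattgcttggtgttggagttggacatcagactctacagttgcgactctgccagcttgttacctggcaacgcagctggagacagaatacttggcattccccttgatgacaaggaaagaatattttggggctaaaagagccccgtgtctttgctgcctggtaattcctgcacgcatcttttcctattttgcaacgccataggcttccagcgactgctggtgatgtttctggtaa

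PCK2 (ENSG00000100889, chromosome 14 from 24094053 to 24110598, plus strand, GRCh38) encodes the mitochondrial phosphoenolpyruvate carboxykinase, which turns oxaloacetate of the citric acid cycle into phosphoenolpyruvate. Its level was 26.4, 24.5 and 26.4 CPM in the vehicle libraries, 49.6, 75.6 and 71.9 CPM in erastin-R and 123, 128 and 117 CPM in RSL3-R. The 3 conditions did not overlap, and erastin-R replicate 1 was the lowest of its group. PCK2 was 2.55-fold higher in erastin-R than in vehicle cells (log2 fold change 1.35, SE 0.13, edgeR adjusted p = 9.51e-07) and 4.76-fold higher in RSL3-R cells (2.25, SE 0.13, adjusted p = 6.83e-09). The difference between the survivors also passed the test, with PCK2 1.87-fold higher in RSL3-R than in erastin-R cells (0.90, SE 0.12, adjusted p = 2.99e-05). Without erastin-R replicate 1 the log2 fold changes were 1.52 for erastin-R against vehicle and 0.73 for RSL3-R against erastin-R. PCK2 shared no run of 50 bases of its transcripts with another gene. Its cytosolic isoenzyme PCK1, the carboxykinase of liver gluconeogenesis, had 0 counts in all 9 libraries, which allows a level of up to 0.195 CPM in the shallowest of them.

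GPT2 (ENSG00000166123, chromosome 16 from 46884378 to 46931297, plus strand) encodes the mitochondrial alanine transaminase, which passes the amino group of glutamate to pyruvate and yields alanine and alpha-ketoglutarate. It had 45.2, 46.6 and 44.0 CPM in vehicle libraries, 74.0, 91.2 and 91.5 CPM in erastin-R and 136, 137 and 138 CPM in RSL3-R. The order of the conditions was that of PCK2, again without overlap and again with erastin-R replicate 1 lowest in its group. The rise was 1.89-fold in erastin-R cells (log2 fold change 0.92, SE 0.08, adjusted p = 5.10e-07) and 3.03-fold in RSL3-R cells (1.60, SE 0.08, adjusted p = 2.30e-09), and RSL3-R cells exceeded erastin-R cells 1.60-fold (0.68, SE 0.08, adjusted p = 9.37e-06). Without erastin-R replicate 1 the rise in erastin-R cells was 1.01 on the log2 scale, which takes GPT2 past the fold threshold in that comparison, and the difference between the survivors was 0.58. The cytosolic isoenzyme GPT was scarce, with 4 to 30 counts per library. It was not called against vehicle in either population (log2 fold change -0.96, adjusted p = 0.106, and 0.26, adjusted p = 0.639) and was called higher in RSL3-R than in erastin-R cells (1.22, SE 0.47, adjusted p = 0.0439) although the libraries overlapped.

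GLUD1 (ENSG00000148672, chromosome 10 from 87050486 to 87094866, minus strand) encodes glutamate dehydrogenase, the mitochondrial enzyme that oxidises glutamate to alpha-ketoglutarate and ammonia. Its level was 170, 175 and 182 CPM in vehicle, 190, 203 and 196 CPM in erastin-R and 176, 157 and 162 CPM in RSL3-R libraries. The erastin-R libraries lay above all others, and vehicle and RSL3-R overlapped. The rise in erastin-R cells was 1.12-fold (log2 fold change 0.16, SE 0.06, adjusted p = 0.0386) and was lost under 11 of the alternatives, with adjusted p up to 0.151. RSL3-R cells were lower than erastin-R cells (-0.25, SE 0.06, adjusted p = 0.00372, and 0.0552 with upper-quartile factors), and their difference from vehicle was -0.09 (95% confidence interval -0.22 to 0.04, adjusted p = 0.239). Of the 50-base words of GLUD1 transcripts, 31.2% also occur in other genes, 22.2% in the retrogene GLUD2, and 13.2% of its exon bases lie opposite exons of SHLD2, so a part of its reads depends on how such reads were counted. GLUD2 itself had 2 to 19 counts per library and was not called in any comparison (log2 fold change 0.39, adjusted p = 0.572; -0.62, adjusted p = 0.438; and -1.01, adjusted p = 0.177).

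The aspartate transaminases exchange amino groups between glutamate and oxaloacetate, GOT1 in the cytosol and GOT2 in mitochondria, and together carry the malate-aspartate shuttle. GOT2 (ENSG00000125166, chromosome 16 from 58707131 to 58734357, minus strand) stood at 110, 107 and 110 CPM in vehicle, 96.7, 101 and 98.5 CPM in erastin-R and 75.1, 78.7 and 73.3 CPM in RSL3-R libraries. The conditions did not overlap, with RSL3-R lowest. GOT2 fell by 0.52 on the log2 scale in RSL3-R cells (SE 0.06, adjusted p = 5.54e-06), and it was lower there than in erastin-R cells as well (-0.38, SE 0.06, adjusted p = 0.000109). The smaller decrease in erastin-R cells (-0.14, SE 0.06, adjusted p = 0.0499) was lost under 12 of the alternatives, with adjusted p up to 0.162. GOT1 (ENSG00000120053, chromosome 10 from 99396870 to 99431569, minus strand) had 51.4, 54.2 and 50.3 CPM in vehicle, 64.1, 54.0 and 57.6 CPM in erastin-R and 49.0, 52.6 and 47.1 CPM in RSL3-R libraries. Vehicle overlapped with both populations of survivors. GOT1 was not called against vehicle in erastin-R cells (0.17, 95% confidence interval 0.00 to 0.34, adjusted p = 0.0772) or RSL3-R cells (-0.07, interval -0.24 to 0.10, adjusted p = 0.500), and was lower in RSL3-R than in erastin-R cells (-0.24, SE 0.08, adjusted p = 0.0204), a call that 5 of the alternatives lost. An antisense gene, AL391684.1 with 36 to 98 counts, covers 19.3% of the exon bases of GOT1, and without a stated strand setting their reads cannot be told apart there.

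GLUL (ENSG00000135821, chromosome 1 from 182381704 to 182392206, minus strand) encodes glutamine synthetase, which makes glutamine from glutamate and ammonia. Its level was 113, 106 and 105 CPM in vehicle, 85.2, 91.0 and 93.2 CPM in erastin-R and 105, 115 and 118 CPM in RSL3-R libraries. The erastin-R libraries were below all others, and vehicle and RSL3-R overlapped. GLUL fell by 0.27 on the log2 scale in erastin-R cells (SE 0.07, adjusted p = 0.00366). In RSL3-R cells the difference from vehicle was 0.06 (95% confidence interval -0.08 to 0.20, adjusted p = 0.500), and RSL3-R exceeded erastin-R cells by 0.33 (SE 0.07, adjusted p = 0.00109). GLS2 (ENSG00000135423, chromosome 12 from 56470944 to 56488414, minus strand), the liver-type glutaminase, had 2, 2 and 2 counts in vehicle libraries, 3, 4 and 0 in erastin-R and 4, 2 and 6 in RSL3-R. These counts are at or near the floor, no fold change is given, and 77.1% of its exon bases lie opposite exons of SPRYD4, which had 64 to 116 counts.

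OGDH (ENSG00000105953, chromosome 7 from 44606572 to 44709066, plus strand) encodes the substrate-binding E1 subunit of the alpha-ketoglutarate dehydrogenase complex, the step by which glutamine carbon goes on through the cycle. Its level was 242, 242 and 226 CPM in vehicle, 186, 202 and 204 CPM in erastin-R and 196, 201 and 202 CPM in RSL3-R libraries. Both populations of survivors lay below all vehicle libraries and overlapped with each other. OGDH fell by 0.26 in erastin-R cells (SE 0.06, adjusted p = 0.00160) and by 0.25 in RSL3-R cells (SE 0.06, adjusted p = 0.00292) on the log2 scale, while the difference between the survivors was 0.02 (95% confidence interval -0.11 to 0.14, adjusted p = 0.841). The other subunits of the complex, singled out after their values were seen, fell too: the log2 fold changes in erastin-R and RSL3-R cells were -0.28 and -0.32 for DLST (adjusted p = 0.000658 and 0.000307) and -0.54 and -0.65 for DLD (adjusted p = 1.76e-05 and 4.11e-06), which also serves the pyruvate dehydrogenase complex. OGDHL, the isoenzyme of OGDH, had 2 to 19 counts and did not pass the filter.

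IDH2 (ENSG00000182054, chromosome 15 from 90083045 to 90102504, minus strand) encodes the mitochondrial isocitrate dehydrogenase that uses NADP and links isocitrate and alpha-ketoglutarate, making NADPH in the oxidative direction. It had 28.2, 27.7 and 27.4 CPM in vehicle, 36.6, 37.0 and 37.8 CPM in erastin-R and 16.1, 19.1 and 16.8 CPM in RSL3-R libraries. All erastin-R libraries were above and all RSL3-R libraries below the vehicle libraries. IDH2 rose 1.34-fold in erastin-R cells (log2 fold change 0.42, SE 0.08, adjusted p = 0.000632) and fell by 0.68 on the log2 scale in RSL3-R cells (SE 0.09, adjusted p = 1.72e-05). The direct comparison of RSL3-R with erastin-R cells gave a log2 fold change of -1.10 (SE 0.08, 95% confidence interval -1.28 to -0.92, adjusted p = 2.79e-07), or 2.14-fold lower. With upper-quartile factors it was -0.998, just short of the fold threshold (adjusted p = 6.26e-07). The cytosolic isoenzyme IDH1, also an NADP enzyme, changed the other way in each comparison. Vehicle cells held 91.1 ± 4.38 CPM of it (SD, n = 3), erastin-R cells 67.8 ± 6.34 CPM and RSL3-R cells 109 ± 2.93 CPM, with log2 fold changes of -0.43 (adjusted p = 0.000240), 0.26 (adjusted p = 0.00918) and, between the survivors, 0.68 (adjusted p = 5.30e-06).

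Without erastin-R replicate 1, the library that stood apart, the log2 fold changes of the other enzymes in erastin-R against vehicle cells were 0.43 for IDH2 (adjusted p = 9.36e-05), 0.18 for GLUD1 (0.00335), 0.10 for GOT1 (0.212), -0.13 for GOT2 (0.0420), -0.22 for OGDH (0.000147) and -0.23 for GLUL (0.00111). Between RSL3-R and the remaining erastin-R libraries they were -1.11 for IDH2, -0.27 for GLUD1, -0.17 for GOT1 (adjusted p = 0.0352), -0.40 for GOT2, -0.03 for OGDH and 0.29 for GLUL. The calls of these enzymes were the ones made with all 9 libraries.

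**Figure D2:**
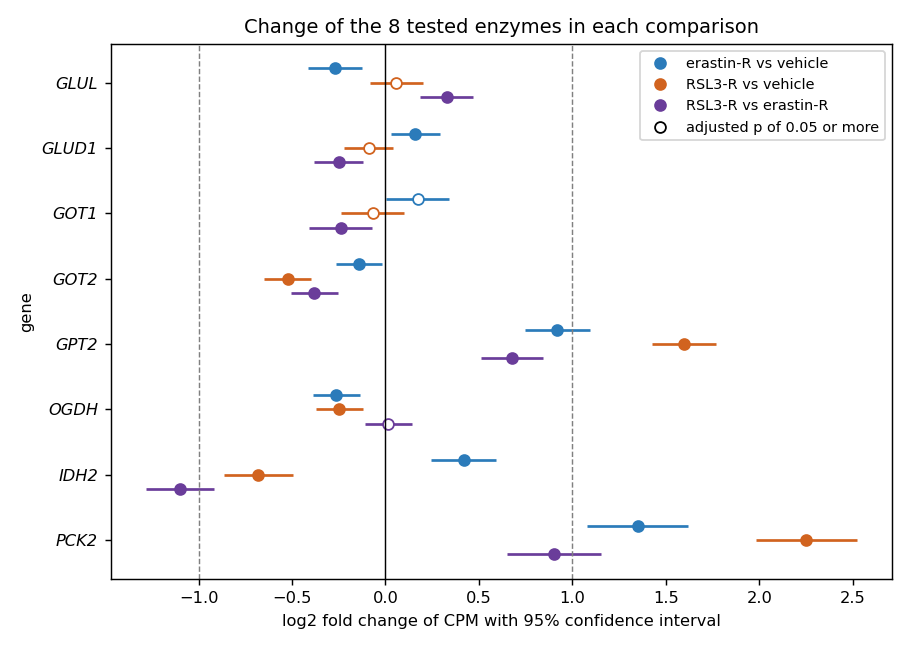
Log2 fold change (x axis) of the 8 tested enzymes (y axis) in erastin-R against vehicle, RSL3-R against vehicle and RSL3-R against erastin-R cells, with 95% confidence intervals from edgeR as bars, filled points for an adjusted p under 0.05, open points otherwise, and dashed lines at the fold threshold. PCK2 reaches 2.25 and GPT2 1.60 in RSL3-R cells, and IDH2 is the enzyme whose filled points against vehicle lie on both sides of 0.

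Levels of different genes were compared per length, as the authors' FPKM, whose length counts all annotated exons of a gene. The transcripts expressed may be shorter, so the order between genes depends on the annotation. In vehicle cells the order was GLUD1 (49.4 FPKM, mean of 3), OGDH (45.0), GOT2 (28.6), GOT1 (15.3), GLUL (11.9), IDH2 (9.77), GPT2 (7.05), PCK2 (6.08) and GLS2 (0.0292), and no neighbours in that order overlapped over their libraries. In erastin-R cells the order began with GLUD1 (55.0 FPKM), OGDH (37.4), GOT2 (25.8) and GOT1 (17.1). PCK2 (15.5), GPT2 (13.3) and IDH2 (13.0) followed, ahead of GLUL (9.80). There GOT1 overlapped with PCK2, PCK2 with GPT2 and GPT2 with IDH2, and PCK2 alone spanned 11.6 to 17.8 FPKM, while GOT2 lay above GOT1 and GLUL below IDH2 without overlap. In RSL3-R cells PCK2 had moved from rank 8 to rank 3 (29.1 FPKM) and GPT2 from rank 7 to rank 4 (21.4 FPKM), behind GLUD1 (46.6) and OGDH. GOT2 (19.9), GOT1 (14.6), GLUL (12.4) and IDH2 (6.11) came after them, with no overlap between neighbours. Summed over the 9 enzymes, the level was 173 ± 0.420 FPKM in vehicle, 187 ± 8.47 in erastin-R cells, against 188 ± 1.97 in RSL3-R cells (SD, n = 3), of which PCK2 and GPT2 together made up 7.59%, 15.3% (13.0 to 16.6% over libraries) and 26.8%. PCK2 and GPT2 are the members called higher in both populations, so their rising share restates that result.

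**Figure D3:**
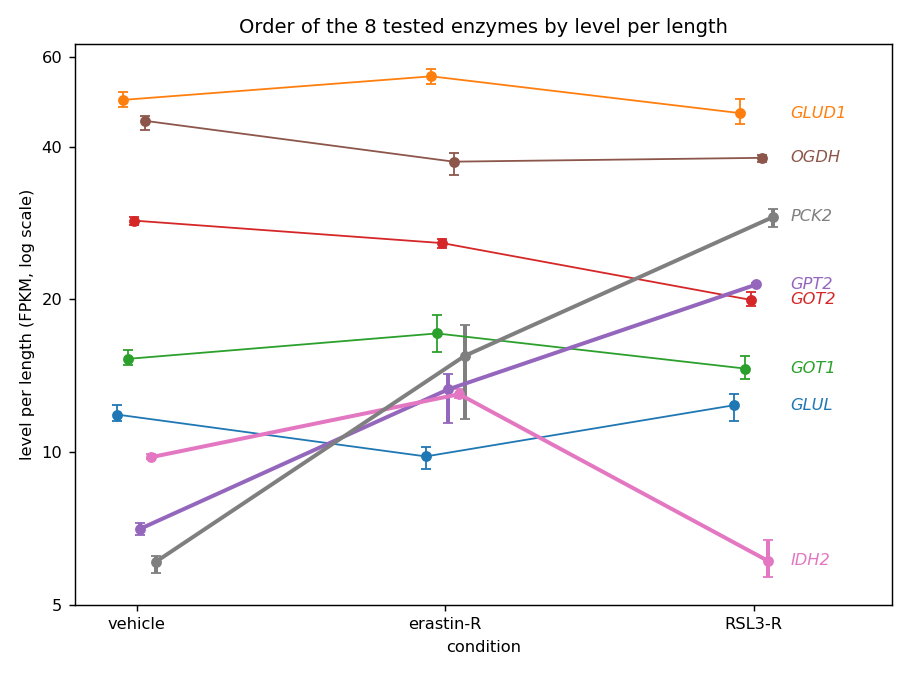
Level per length in FPKM (y axis, log scale) of the 8 tested enzymes in vehicle, erastin-R and RSL3-R cells, as means of 3 libraries with bars from the lowest to the highest library and thick lines for PCK2, GPT2 and IDH2. PCK2 goes from 6.08 to 29.1 FPKM and GPT2 from 7.05 to 21.4 FPKM, passing GLUL, GOT1 and GOT2, while IDH2 drops to 6.11 FPKM in RSL3-R cells.

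Ratios per length between enzymes were compared by exact two-sided permutation tests of 3 against 3 libraries, which cannot give a p below 0.1, and 6 such comparisons were made, so that the smallest adjusted p was 0.12. The ratios restate transcript levels given above and do not measure how much glutamate leaves by a route. GLUD1 over GPT2 sets the transcript of the ammonia-releasing exit of glutamate against that of the alanine exit. The ratio was 7.02 ± 0.391 (SD, n = 3) in vehicle, 4.17 ± 0.411 in erastin-R cells, against 2.18 ± 0.148 in RSL3-R cells. No 2 conditions overlapped, and the log2 differences from vehicle were -0.75 and -1.69 (exact p = 0.1 each). These differences come mostly from GPT2, which changed by 0.92 and 1.60 on the log2 scale, against 0.16 and -0.09 for GLUD1. Mitochondrial GOT2 over cytosolic GOT1 was 1.88 ± 0.102 in vehicle, 1.52 ± 0.160 in erastin-R cells, against 1.37 ± 0.0276 in RSL3-R cells. Both survivors were below vehicle without overlap (log2 differences -0.31 and -0.45, exact p = 0.1 each) and overlapped with each other (-0.14, exact p = 0.3).

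The surroundings of the 9 enzymes were read from 65 further genes in 5 lists, of which 61 passed the filter. The lists were chosen with earlier results of these data known, so their counts describe these genes and do not test a pathway. In erastin-R cells 17 of these were higher, 22 lower and 6 past the fold threshold, where all genes gave 27.1%, 26.8% and 13.4%. In RSL3-R cells 13 were higher, 33 lower and 10 past it (all genes 23.8%, 24.9% and 10.1%). Between the survivors 8 were higher in RSL3-R cells, 27 lower and 3 past it (all genes 22.3%, 26.9% and 10.3%). The median log2 fold change of the 61 genes was 0.03, -0.23 and -0.16 in the 3 comparisons, against -0.02 to 0.01 for all genes.

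Glutamine entry and amide use (12 of 13 genes tested) had 5 genes higher and 4 lower in erastin-R (27.1% and 26.8% of all genes), and 5 higher and 5 lower in RSL3-R cells (23.8% and 24.9% of all genes), with medians of 0.15 and -0.05. SLC1A5, the main glutamine transporter of many tumour cells, rose by 1.16 and 1.28 on the log2 scale (adjusted p = 4.85e-07 and 2.08e-07). SLC38A1, another glutamine transporter, rose in RSL3-R cells (1.09, adjusted p = 2.30e-09), while its value in erastin-R cells was 0.11 (adjusted p = 0.105), and the survivors differed by 0.98 (adjusted p = 1.36e-08). ASNS, which uses the amide of glutamine to make asparagine, went from 28 to 35 counts per vehicle library to 424 to 478 in erastin-R and 424 to 467 in RSL3-R libraries, with log2 fold changes of 3.81 and 3.80 (adjusted p = 2.58e-10 and 9.09e-11). GFPT1, the entry to hexosamine synthesis, rose by 1.52 and 1.60 (adjusted p = 9.38e-10 and 4.18e-10).

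Glutamate conversion (13 of 13 tested) had 7 genes higher and 1 lower in erastin-R cells (all genes 27.1% and 26.8%), and 4 higher and 4 lower in RSL3-R cells (all genes 23.8% and 24.9%), with medians of 0.39 and 0.06. PSAT1, the transaminase of serine synthesis, shared the order of PCK2 and GPT2. It rose by 0.71 in erastin-R cells, by 1.90 in RSL3-R cells (adjusted p = 2.02e-07 and 6.72e-11) and was 1.19 higher in RSL3-R than in erastin-R cells on the log2 scale (adjusted p = 3.10e-09). PYCR1, which makes proline, rose by 1.26 and 1.04 (adjusted p = 7.48e-09 and 4.01e-08), and ALDH4A1, which returns proline carbon to glutamate, fell by 0.61 and 1.58 (adjusted p = 0.00393 and 3.45e-06). GAD1, which makes the transmitter GABA, rose in erastin-R cells (1.11, adjusted p = 5.61e-06) and its value in RSL3-R cells was 0.27 (adjusted p = 0.0984). ABAT, which degrades GABA, rose by 1.35 and 1.57 from a low level of 27 to 41 counts per vehicle library (adjusted p = 0.00180 and 0.000616).

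The mitochondrial carriers of glutamate, malate and pyruvate (8 of 9 tested) had 0 genes higher in erastin-R or RSL3-R cells (all genes 27.1% and 23.8%). By edgeR at an adjusted p under 0.05, 6 were lower in erastin-R and 8 of 8 in RSL3-R cells (all genes 26.8% and 24.9%). The medians were -0.38 and -0.63. SLC25A22, the main mitochondrial glutamate carrier, was at 52.3 ± 2.94 CPM (SD, n = 3) in vehicle, 42.7 ± 8.94 CPM in erastin-R cells, against 25.9 ± 3.05 CPM in RSL3-R cells, with log2 fold changes of -0.29 (adjusted p = 0.0685) and -1.02 (adjusted p = 2.68e-05). SLC25A10, the dicarboxylate carrier, fell by 0.63 and 2.21 (adjusted p = 0.0254 and 7.95e-06), from 104 to 169 counts per vehicle library to 20 to 41 per RSL3-R library.

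Of pyruvate entry and the citric acid cycle, 21 of 22 genes were tested, with OGDHL left out by the filter. In erastin-R cells 3 were higher and 7 lower (all genes 27.1% and 26.8%). In RSL3-R cells 1 was higher and 14 lower (all genes 23.8% and 24.9%). The medians were -0.05 and -0.30. In each of the 3 comparisons 0 genes were past the fold threshold, against 13.4%, 10.1% and 10.3% of all genes. The gene higher in RSL3-R cells, named after its value was seen, was SUCLG2 (0.66, and 0.91 in erastin-R cells), a subunit of succinyl-CoA ligase. Among the cytosolic partners and malic enzymes (7 of 8 tested) 2 were higher and 4 lower in erastin-R (all genes 27.1% and 26.8%), and 3 higher and 2 lower in RSL3-R cells (all genes 23.8% and 24.9%), with medians of -0.18 and 0.01.

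**Figure D4:**
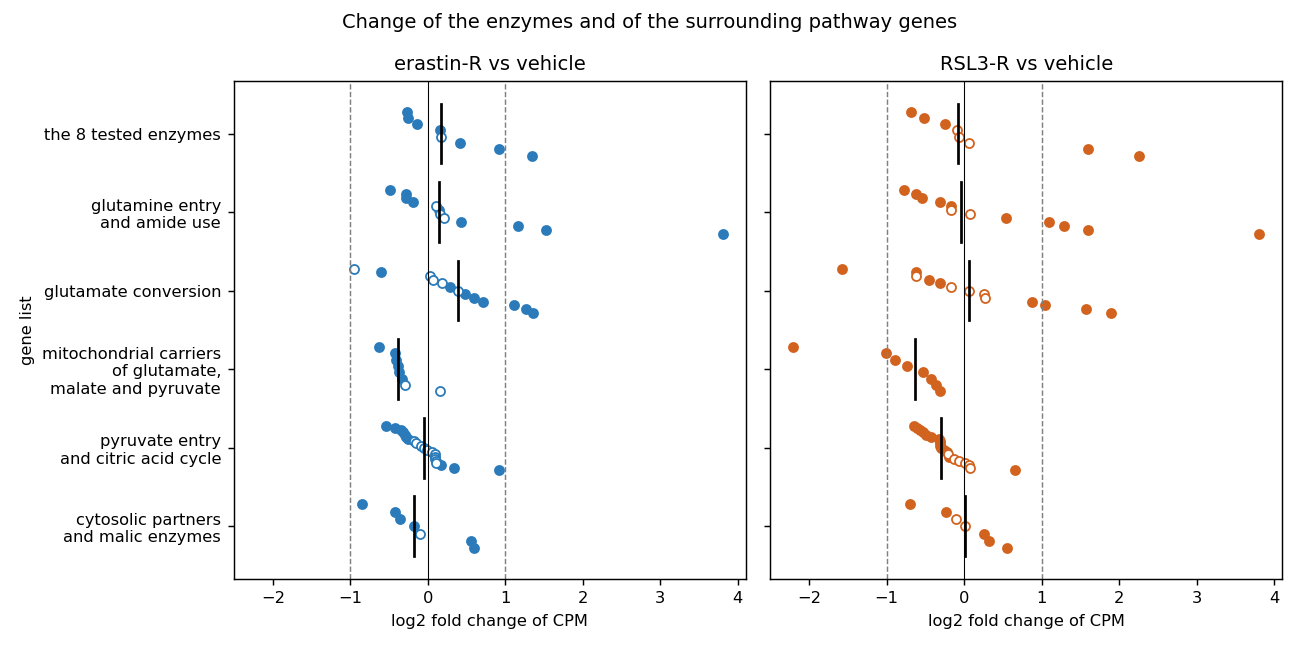
Log2 fold change (x axis, same scale in both panels) of the 8 tested enzymes and of the 61 tested genes of the 5 surrounding lists (y axis), for erastin-R against vehicle and RSL3-R against vehicle cells, with filled points for an adjusted p under 0.05, open points otherwise, black bars at each list's median and dashed lines at the fold threshold. All 8 tested mitochondrial carriers are filled and below 0 in RSL3-R cells (median -0.63), where 24.9% of all genes were lower. ASNS is the point farthest right in both panels (3.81 and 3.80).

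The genes whose pattern was most like that of each enzyme past the fold threshold were found by Pearson's r of log2 CPM over the 9 libraries among 12962 protein-coding genes, as a description, since the libraries share 3 conditions that set most of such a pattern. For GPT2 these were TRIB3 (r = 0.998), CHAC1 (0.998) and LARP6 (0.997). TRIB3, a pseudokinase, stood 1.76 above vehicle in erastin-R cells and 2.84 above it in RSL3-R cells on the log2 scale, and CHAC1, which degrades glutathione, 2.24 and 3.84. For PCK2 they were SLC7A5 (0.997), a transporter of large neutral amino acids, IER3 (0.995) and C11orf54 (0.994), with log2 fold changes of 0.63, 0.86 and 0.36 in erastin-R cells, against 1.05, 1.31 and 0.65 in RSL3-R cells. For IDH2 they were MPV17L2 (0.995), ACBD5 (0.991) and DEF6 (0.989), each with a positive value in erastin-R (0.24, 0.25 and 0.44) and a negative value in RSL3-R cells (-0.47, -0.29 and -0.59).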

How the data were processed

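The 9 libraries of poly-A RNA were grouped by their treatment label, 3 per condition. The authors deposited raw counts per gene and FPKM values made from them. The submitters' processing notes name HISAT2 2.0.5 and featureCounts 1.5.0-p3, and the strand setting is not given in the sources used here. Identifiers are those of GENCODE 29 (GRCh38), and all 58735 were found there. The members, lists and tests were chosen with earlier results of these data known.

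Counts were analysed with edgeR 4.0.16 (TMM, filterByExpr, quasi-likelihood test, 1 model of 9 libraries) in R 4.3.3, with Benjamini-Hochberg adjustment over 16188 genes. Total counts were 15405102 to 17273464 and the coefficient of variation between replicates was 8.56%. The script was tested on simulated data. Replicate numbers did not pair libraries (same-number correlations of -0.0904 to 0.0518 over 9 pairs). Replicates of 1 condition differed above counting noise. The mean squared difference over the counting variance was 25.2 and 24.4 for the pairs with erastin-R replicate 1. It was 2.46 to 5.48 for the other pairs within a condition. Erastin-R replicate 1 also enters the shared estimate of 8.56%. Named genes were the members, their isoenzymes, list genes past the fold threshold and the 3 genes closest to each member past it. DLST, DLD and SUCLG2 fall outside this rule and were named after their values were seen. A few single results that this rule covers are not reported here. Log2 CPM used a prior count of 3. Alternatives used DESeq2 1.42.0 and limma 3.58.1. Permutation tests used scipy 1.17.1.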

Additional observations from a re-analysis of the deposited data

Results flagged for a closer look

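IDH2, the mitochondrial NADP isocitrate dehydrogenase, moved in opposite directions in the survivors. It was higher in all 3 erastin-R libraries (36.6 to 37.8 CPM) and lower in all 3 RSL3-R libraries (16.1 to 19.1 CPM) than in every vehicle library (27.4 to 28.2 CPM). The test of the difference between RSL3-R and erastin-R cells gave a log2 fold change of -1.10 (edgeR adjusted p = 2.79e-07), and leaving out each library in turn gave -1.17 to -1.01. Upper-quartile factors gave -0.998 (adjusted p = 6.26e-07), which is not past the fold threshold. Its cause was not tested.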

How the results depend on the processing

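Of 360 values of the 24 member comparisons under the alternatives, 327 kept their direction and their side of the threshold, 30 lost a call, 1 gained one and 2 changed sign, in 7 comparisons. The lost calls were those of GLUD1 (11) and GOT2 (12) in erastin-R against vehicle and of GOT1 (5) and GLUD1 (2) in RSL3-R against erastin-R cells. GOT1 gained a call in erastin-R cells without erastin-R replicate 2 (adjusted p = 0.0369). It changed sign in RSL3-R cells without RSL3-R replicate 3 (range over libraries left out -0.11 to 0.0052), and OGDH between the survivors without erastin-R replicate 1 (range -0.026 to 0.066). Neither was called. Members past the fold threshold in erastin-R cells were 1 to 2 with each library left out, 2 without erastin-R replicate 1. Over all genes, 2162 were past it in the main fit and 2573 without that library. Between the survivors, members lower were 2 with upper-quartile factors and 2 to 4 with a library left out, 2 without RSL3-R replicate 3. All genes called there in either direction were 7969 in the main fit, 7877 with upper-quartile factors and 6625 without RSL3-R replicate 3. Members past the fold threshold there were 2 with quantile normalization and limma, and 1 to 2 with a library left out, 2 without erastin-R replicate 2. Of all genes, 1674 were past the fold threshold there in the main fit. The number was 1466 with quantile normalization and limma and 1559 without erastin-R replicate 2. With upper-quartile factors the 1 member past it was PCK2 (1.004) in place of IDH2 (-0.998). The causes were not tested. With the replicate block, which only shares numbers, GLUD1 (adjusted p = 0.0722) and GOT2 (adjusted p = 0.0931) lost their calls in erastin-R cells, and 2 of 9 libraries correlated best with their own number. The depth limits GLS2, PCK1, OGDHL, GLUD2 and GPT, which had at most 30 counts in any library.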
